A study of Homo sapiens with 12 samples.

Results

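The genes of the cytosolic ribosomal proteins were followed in LM2 cells, a human breast cancer line selected from MDA-MB-231 cells for spread to the lung. Members were taken by symbol: RPL or RPS followed by a number, with or without A, X, L or L1 after it, together with RPLP0, RPLP1, RPLP2 and RPSA. The rule found 81 genes among 24556 symbols, of which 50 belong to the large and 31 to the small ribosomal subunit. Of these, 78 (48 large, 30 small) reached 1 FPKM on average over all 12 values and were tested among 11929 genes. FPKM counts sequenced fragments relative to transcript length and to the number of mapped fragments, so levels can be set side by side between genes. RNA was sequenced in 4 groups of 3 libraries. Cells transduced with a scramble short hairpin RNA (shRNA) served as the control of cells transduced with an shRNA against EZH2, the catalytic subunit of the polycomb complex that methylates histone H3 at lysine 27. Cells transfected with a scramble small interfering RNA (siRNA) were the control of cells transfected with an siRNA against ZRANB1, a deubiquitinase. All groups were the same line in the same medium, no group was left without a construct, and the labels give neither the sequences targeted nor whether a group's 3 libraries were grown as separate cultures. The p-values therefore measure the spread between these libraries, which may be technical.

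A ribosome is built from ribosomal RNA and a full set of ribosomal proteins. The small subunit decodes the mRNA and the large subunit joins the amino acids. Most of these proteins are made in step with each other, and their mRNAs typically begin with a C followed by a run of pyrimidines, the 5′ terminal oligopyrimidine (TOP) motif through which growth signalling controls their translation. Some members also act as free proteins: RPL5 and RPL11 form a particle with 5S ribosomal RNA and, when unassembled, bind MDM2, the ubiquitin ligase of p53.

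EZH2 was at 35.4 ± 1.07 FPKM (SD, n = 3) with scramble shRNA and 16.5 ± 0.681 with EZH2 shRNA. ZRANB1 was at 11.4 ± 0.795 with scramble siRNA and 10.0 ± 1.31 with ZRANB1 siRNA (adjusted p = 0.349, limma), so the target was not shown to be lower and that group is called the libraries labelled ZRANB1 siRNA. EZH2 itself was at 48.6 ± 2.1 and 30.4 ± 2.08 in these 2 groups. The labelled cell type was checked with 4 genes high in this line and 5 low in it, given as group means in the order scramble and EZH2 shRNA, then scramble and ZRANB1 siRNA. VIM, a mesenchymal filament gene, ranged from 2158 to 2989 FPKM over all values. The other high genes had their lowest means with scramble siRNA: CD44 was at 264, 261, 118 and 206, FN1 at 98.5, 82.8, 35.2 and 67.9, and SPARC at 116, 94.6, 47.6 and 78.7. Of the low genes, PGR was listed at 0 and CDH1 and ESR1 stayed at or under 0.0781 and 0.0308. EPCAM and ERBB3 were detected and had their highest means with scramble siRNA, at 3.53, 4.34, 8.23 and 7.13 for EPCAM and 1.45, 1.13, 2.22 and 1.67 for ERBB3. Summed markers of other cell types, in the same order, were 1.36, 1.42, 2.56 and 1.64 FPKM for 4 blood genes and 1.63, 1.18, 0.345 and 0.736 for 3 endothelial genes. They were 25.1, 19.8, 8.83 and 17.7 for 3 fibroblast genes, nearly all of it COL1A1; the defining endothelial gene CDH5 and the fibroblast gene DCN were at 0 with scramble siRNA, and the blood gene CD3E in all but the scramble shRNA group. The part of these genes in the results was not tested. The depth behind each value is unknown. Within each group the 3 values of a gene are sorted as text, so a column belongs to no single library, and values are given from lowest to highest.

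The ribosomal proteins were among the most abundant transcripts of these cells. With the 192 tested small RNA symbols left out, 60 of the 100 tested genes with the highest mean FPKM were members. The median member stood at 1130 FPKM (large subunit 1013, small subunit 1164), with 45 members at 1000 or more, 19 from 500 to 1000, 10 from 100 to 500 and 4 below 100. RPL41, which encodes the shortest of the ribosomal proteins, had the highest mean at 3297 FPKM, followed by RPL13A at 2503 and RPLP1 at 2327. The lowest tested members were diverged copies of standard members: RPL22L1 at 16.6, RPL39L at 26.7, RPS27L at 58.5 and RPL26L1 at 61.1. Within a group the coefficient of variation of the median member was 6.83% with scramble shRNA, 7.72% with EZH2 shRNA, 5.79% with scramble siRNA and 5.45% with ZRANB1 siRNA.

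Among the 3 members that were not tested, RPL10L was listed at 0 in all 12 values, and RPL3L, a copy known from striated muscle, was at most 0.106. Ribosomal proteins have many processed pseudogenes, and how shared reads were divided is not given in the sources used here, which leaves the level of each member uncertain. The standard genes RPL17, RPS10 and RPL36A were each joined with a neighbouring gene in 1 row and fell outside the rule.

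Summed over the 81 members, ribosomal protein transcripts made up 13.7% of all FPKM with scramble shRNA, 13.3% with EZH2 shRNA, 17.8% with scramble siRNA and 17.2% with ZRANB1 siRNA. These are ratios of group means without an error, since no value can be tied to a library. The ratio of the large to the small subunit sum was 1.41, 1.38, 1.41 and 1.40 in the same order, so both subunits made up the difference between the siRNA and shRNA groups. In these bulk samples fewer cells of a type and less RNA per cell cannot be told apart.

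**Figure D1:**
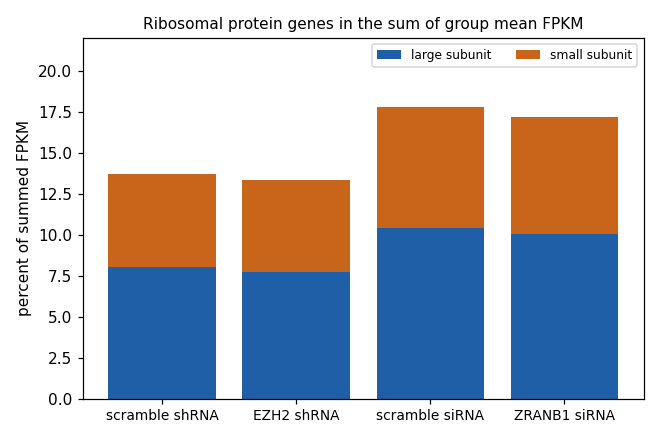
Bars give the percent of the sum of group mean FPKM that fell in large (lower, blue) and small (upper, orange) subunit genes in each of the 4 groups. The stacks reach 13.7% and 13.3% in the shRNA groups and 17.8% and 17.2% in the siRNA groups, and the ratio of the 2 colours stays between 1.38 and 1.41.

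Start-site sequences are shown for 8 members that the results turn on, the 4 that were lower and 4 of those that were higher between the scramble groups, because the TOP motif is the feature these genes are known to share. Each window holds 15 bases before and 15 bases from a RefSeq transcript start (GRCh38.p14, another build than the hg19 of the deposited values), 5′ to 3′ on the gene's strand. Where a gene had more than 1 start, the start with the longest tract was taken. This applied to RPL10, with 3 starts. Neither of the 2 starts of RPL6 had a tract, so the first listed is shown. Capitals mark a C at the start followed by at least 4 unbroken C or T.
RPL39, chrX:119791616-119791645, minus strand: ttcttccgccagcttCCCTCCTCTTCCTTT
RPL10, chrX:154398362-154398391, plus strand: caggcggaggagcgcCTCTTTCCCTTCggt
RPLP0, chr12:120201097-120201126, minus strand: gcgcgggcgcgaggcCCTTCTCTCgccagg
RPS4X, chrX:72277234-72277263, minus strand: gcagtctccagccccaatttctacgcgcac
RPS7, chr2:3575245-3575274, plus strand: gtttccgccctcctcctcgcgctgtttccg
RPL6, chr12:112411428-112411457, minus strand: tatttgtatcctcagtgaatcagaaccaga
RPS26, chr12:56041903-56041932, plus strand: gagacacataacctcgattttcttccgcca
RPS29, chr14:49598696-49598725, minus strand: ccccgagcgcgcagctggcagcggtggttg
RPL39, RPL10 and RPLP0 hold such a tract, of 19, 12 and 9 bases, that of RPL39 running past the window. The other 5 have no such letters at the annotated base, which says nothing of the starts used in these cells. Of 63 members with a promoter entry, 45 had a tract at 1 start or more (71.4%; 28 of 39 large and 17 of 24 small subunit genes), with a median length of 8 bases and a range of 5 to 19. Over all 35116 promoters in the table the share was 4.07%, and counted by symbol, with any start, it was 5.14% of 27305. Members with and without a tract had median differences of -0.14 and -0.16 with EZH2 shRNA, -0.061 and -0.12 with ZRANB1 siRNA, and 0.39 and 0.47 between the scramble groups, all on the scale of log2(FPKM + 1).

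With EZH2 shRNA the ribosomal protein genes were mostly a little lower than with scramble shRNA. The median difference was -0.16 on the log2(FPKM + 1) scale, 0.898-fold, beside -0.014 over all genes tested, and 67 of 78 members had a difference below 0, against 53% of all genes. Called at an adjusted p below 0.05 (limma, Benjamini-Hochberg over all genes) were 7 members that fell and 0 that rose; over all genes 3.03% fell, 3.39% rose and 6.41% changed in either direction. Without adjustment, 32 of the 78 members had a limma p below 0.05, as did 2558 of all 11929 genes tested. In 33 members all 3 EZH2 shRNA values lay below all 3 controls, which held for 11.6% of all genes, and in 0 members all lay above, which held for 10.6%. The large subunit had 4 falls among 48 tested genes and a median of -0.17, and the small subunit 3 among 30 and a median of -0.12.

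RPL11, the partner of RPL5 in the 5S particle, gave the smallest adjusted p of these members. It was at 972, 1006 and 1040.4 FPKM with scramble shRNA and at 803, 857 and 866 with EZH2 shRNA, a fall of 0.26 (log2, SE 0.052, adjusted p = 0.0154). All EZH2 shRNA values lay below the controls. Its partner RPL5 was at 819.7, 845 and 905 with scramble shRNA and 713, 724 and 813 with EZH2 shRNA, also without overlap, but with a difference of -0.19 it was not called (adjusted p = 0.138). RPL30, a large subunit protein, was at 928, 949.7 and 982 with scramble shRNA and 651, 789.6 and 789.9 with EZH2 shRNA (-0.36, SE 0.074, adjusted p = 0.0158). RPS25, a small subunit protein known for its part in translation from internal ribosome entry sites, was at 1282, 1327 and 1407 with scramble shRNA and 947, 1114 and 1119 with EZH2 shRNA (-0.34, adjusted p = 0.017). In both genes 1 EZH2 shRNA value was well below the other two. RPL7 fell from a mean of 875 ± 44.7 to 699 ± 58.9 FPKM (-0.33, adjusted p = 0.0303). RPL4, whose long loop reaches the exit tunnel of the ribosome, fell from 816 ± 25.3 to 703 ± 17.1 (-0.22, adjusted p = 0.0305). The small subunit gene RPS18 fell by 0.25 (adjusted p = 0.0495). In RPS18 the 3 EZH2 shRNA values lay close together, at 1779.7, 1809.7 and 1811, below controls of 1999.7, 2045 and 2417. No called member differed by more than 0.36. With the 6 shRNA values fitted alone 0 members were called, and over all genes 124 of 11869 were called higher and 98 lower. RPL19, picked after its values were seen, had a larger difference (-0.40) but wider groups, 1046, 1259 and 1345 against 747, 971 and 1061, and was not called (adjusted p = 0.0856).

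The acidic stalk proteins RPLP0, RPLP1 and RPLP2, which recruit translation factors to the large subunit, differed by -0.09, -0.16 and -0.20 with EZH2 shRNA, and none was called. RPSA, a small subunit protein also known as a laminin receptor, was on the other side of 0 at 0.09, from 1077, 1181 and 1181 to 1085, 1246 and 1335 FPKM, with overlapping groups. RPS27A, made as a fusion with ubiquitin, was at 481, 552 and 618 with scramble shRNA and 580.5, 598 and 630.0 with EZH2 shRNA (0.14, adjusted p = 0.425), also overlapping. Of the 5 tested diverged copies 0 were called; RPS27L, known as a p53 target, was at 52.7, 59.2 and 63.3 with scramble shRNA and 35.4, 50.8 and 53.6 with EZH2 shRNA, and RPL26L1 at 47.1, 49.4 and 51.2 with scramble shRNA and 39.0, 40.5 and 43.7 with EZH2 shRNA. RPL26L1 was the only one of the 5 whose values did not overlap with the controls (-0.26, adjusted p = 0.0833).

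**Figure D2:**
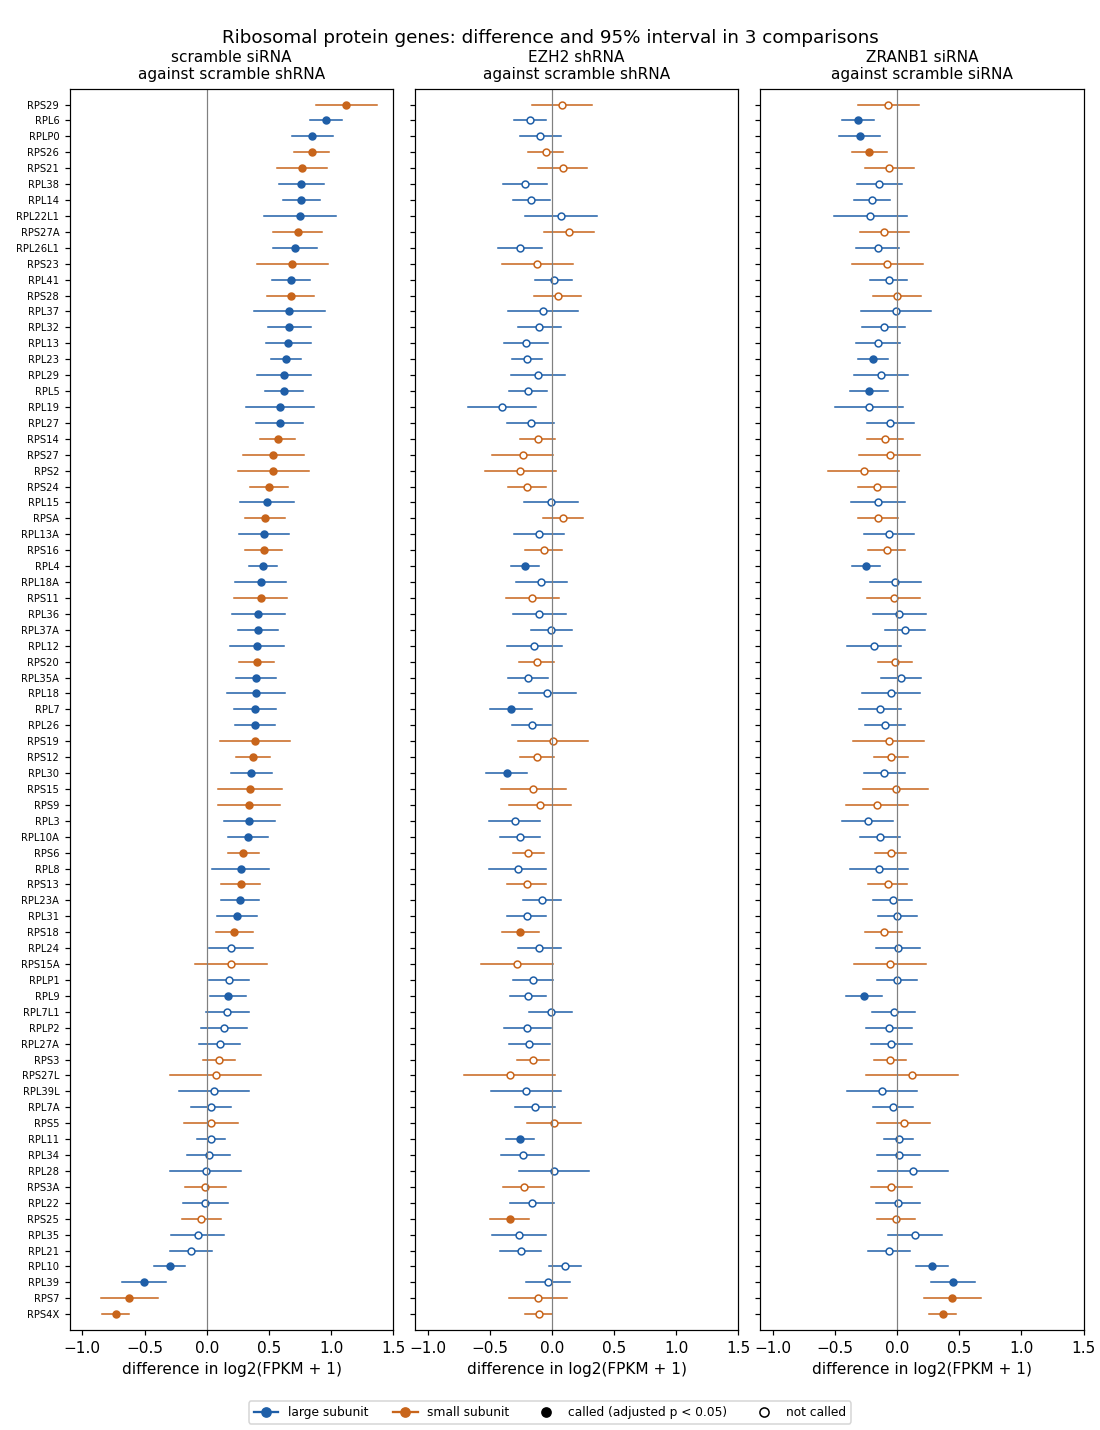
Points give the difference in log2(FPKM + 1) of the tested members reported here with a 95% interval from limma, ordered by the difference between the scramble groups. Large subunit genes are blue, small subunit genes orange, and filled points were called. The left panel lies mostly to the right of 0, the middle panel mostly a little to the left, and in the right panel RPS4X, RPL39, RPL10 and RPS7 are the filled points to the right of 0.

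In the libraries labelled ZRANB1 siRNA, 4 members rose and 7 fell against scramble siRNA. Over all genes 10.1% rose, 6.5% fell and 16.6% changed in either direction, so the members' shares lay near the background. The median difference was -0.063 beside -0.017 over all genes, and 61 of 78 members were below 0, against 53.2% of all genes. All 3 values lay above the controls in 4 members and below them in 20, where the shares over all genes were 18.5% and 18%. The large subunit had 2 rises and 6 falls with a median of -0.066, and the small subunit 2 rises and 1 fall with a median of -0.059. With 1 scaling factor per group that centres all genes, 4 rises and 4 falls were called.

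The members that rose were RPS4X, RPL39, RPL10 and RPS7. RPS4X, a small subunit gene on the X chromosome, was at 643, 648 and 676 FPKM with scramble siRNA and 818, 848 and 876 with ZRANB1 siRNA, a difference of 0.37 (SE 0.05, adjusted p = 0.000382). RPL39, a very short protein at the exit tunnel and also X-linked, was at 1217, 1261 and 1282 with scramble siRNA and 1596, 1755 and 1785 with ZRANB1 siRNA (0.45, SE 0.081, adjusted p = 0.00295). RPL10, the third X-linked member, which is needed for joining the subunits, was at 291, 303 and 304 with scramble siRNA and 351, 361 and 378 with ZRANB1 siRNA (0.28, SE 0.058, adjusted p = 0.00685). RPS7, a small subunit gene on chromosome 2, was at 537, 557 and 558 with scramble siRNA and 741, 749 and 760.1 with ZRANB1 siRNA (0.45, SE 0.11, adjusted p = 0.0136). In all 4 genes the gap between the groups was wider than the range within either.

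Among the members that fell, RPL6 had the largest difference. It was at 1799.9, 1916 and 1981 with scramble siRNA and 1488, 1507 and 1581 with ZRANB1 siRNA (-0.32, SE 0.059, adjusted p = 0.0036). The stalk base gene RPLP0 was at 2485, 2610.2 and 2647 with scramble siRNA and 1988, 2109 and 2194 with ZRANB1 siRNA (-0.30, adjusted p = 0.0178). RPS26, which lies at the mRNA exit site of the small subunit, was at 649, 655 and 695 with scramble siRNA and 539.8, 571 and 604 with ZRANB1 siRNA (-0.22, adjusted p = 0.0354). These 3 genes lie on chromosome 12, and in none did the groups overlap. RPL4 fell from 1115 ± 25.4 to 938 ± 40.5 (-0.25, adjusted p = 0.00643), and was the only member called in both knockdown comparisons. RPL9 and RPL23, both of the large subunit, fell by 0.26 and 0.19 (adjusted p = 0.018 and 0.0336). RPL5 stood just inside the threshold at 1229, 1334 and 1383 with scramble siRNA and 1076, 1128 and 1173 with ZRANB1 siRNA (-0.22, adjusted p = 0.0497), while RPL11 was at 1009.6, 1039 and 1039.5 with scramble siRNA and 1000.4, 1044 and 1074 with ZRANB1 siRNA and not called (0.01). RPL5, RPL9, RPL23, RPLP0 and RPS26 each lost the call in at least 4 of 21 alternatives, and the other 6 of the 11 kept it in all.

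RPLP1 stood at 2538 ± 189 FPKM with scramble siRNA and 2529 ± 131 with ZRANB1 siRNA, and RPLP2 at 2219 ± 148 and 2119.7 ± 62.3. RPSA differed by -0.15 and RPS27A by -0.10, and none of these was called. The 5 tested copies differed by -0.21 (RPL22L1) to 0.12 (RPS27L), with 0 called. RPS27L was at 52.3, 63.7 and 69.1 FPKM with scramble siRNA and 57.2, 65.5 and 79.2 with ZRANB1 siRNA, while its standard counterpart RPS27 was at 2062, 2219 and 2229 with scramble siRNA and 1964, 2105 and 2178 with ZRANB1 siRNA. Both pairs of groups overlapped.

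The difference between the effects, that of ZRANB1 siRNA minus that of EZH2 shRNA, was tested in the same fit. It was called higher in 4 members and lower in 0; over all genes 6.91% were higher, 3.58% lower and 10.5% either, and 49.7% had a difference below 0 against 24 of 78 members. RPS4X differed by 0.47 (SE 0.07, adjusted p = 0.00122), having moved by -0.10 with EZH2 shRNA and 0.37 with ZRANB1 siRNA. RPL39 differed by 0.48 (adjusted p = 0.0205), RPS7 by 0.56 (adjusted p = 0.0344) and RPL11 by 0.27 (adjusted p = 0.0389). For RPL11 the larger of its effects was that of EZH2 shRNA (-0.26 beside 0.01), and for the other 3 that of ZRANB1 siRNA. Only RPS4X kept this call in all alternatives. Across the 78 members the 2 effects, which share no library, had r = 0.21 and rho = 0.18, beside 0.022 and 0.094 across all genes; genes are not independent replicates.

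More members were called between the 2 scramble controls than between either knockdown and its control. With scramble siRNA, 54 members were higher and 4 lower than with scramble shRNA, and 20 were not called. Over all genes 25.5% were higher, 25.1% lower and 50.6% changed in either direction. The median member differed by 0.39, 1.31-fold, beside 0.011 over all genes, and 11 of 78 members were below 0 against 48.8% of all genes. All 3 values lay above the other control in 56 members and below it in 4, where the shares over all genes were 30.8% and 29.2%. The large subunit (33 higher, 2 lower of 48, median 0.39) and the small subunit (21 higher, 2 lower of 30, median 0.38) had nearly the same shares. The called rises ran from 0.17 in RPL9, just inside the threshold (adjusted p = 0.0487), to 1.12, and the members that were not called lay between -0.13 (RPL21) and 0.19 (RPL24). The reagent, its delivery (transfection or transduction) and anything else that differed between these groups cannot be told apart. This comparison shares the scramble shRNA values with the EZH2 comparison and the scramble siRNA values with the ZRANB1 comparison.

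RPS29, a small zinc-binding protein of the small subunit, had the largest difference. It was at 1113, 1467 and 1487 FPKM with scramble shRNA and 2844, 2911 and 3037 with scramble siRNA (1.12, SE 0.11, adjusted p = 7.8e-06). RPL6 was at 941, 957 and 1026 with scramble shRNA and 1799.9, 1916 and 1981 with scramble siRNA (0.96, SE 0.059, adjusted p = 1.56e-07). RPLP0 was at 1354, 1421 and 1525 with scramble shRNA and 2485, 2610.2 and 2647 with scramble siRNA (0.85, adjusted p = 2.95e-06), and RPS26 at 363, 369 and 379 with scramble shRNA and 649, 655 and 695 with scramble siRNA (0.84, adjusted p = 8.91e-07). In each of these 4 genes the lowest scramble siRNA value was well above the highest scramble shRNA value. RPL38, known from mouse work for a part in translating Hox mRNAs, rose from 929.6 ± 24.5 to 1579 ± 123 FPKM (0.76). RPL14 rose from 938 ± 22.3 to 1593 ± 91.6 (0.76), RPL41 from 2565 ± 99.0 to 4109 ± 239 (0.68) and RPL23 from 1014 ± 42.2 to 1580.0 ± 41.6 (0.64). The adjusted p of these 4 ranged from 2.6e-06 to 1.45e-05. RPL13A, a large subunit protein known also for silencing translation in the interferon response, was higher at 2692, 2904 and 3367 against 1991, 2183 and 2311 (0.46, adjusted p = 0.00133).

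Partners in the 5S particle and in the stalk had unlike values between the controls. RPL5 rose from 856 ± 43.7 to 1315 ± 78.5 FPKM (0.62, adjusted p = 2.25e-05), whereas RPL11 was at 1006 ± 34.2 and 1029 ± 17.2 (0.03, interval -0.08 to 0.15, adjusted p = 0.618). RPLP0 rose by 0.85, while RPLP1 (0.18, interval 0.02 to 0.34, adjusted p = 0.0569) and RPLP2 (0.14, interval -0.05 to 0.33, adjusted p = 0.195) were not called. The difference between members of a particle was not tested. RPSA rose from 1077, 1181 and 1181 to 1561, 1581 and 1618 (0.47, adjusted p = 0.000284) and RPS27A from 481, 552 and 618 to 846, 942 and 943 (0.73, adjusted p = 4.54e-05). Neither overlapped between the controls.

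Diverged copies and their standard counterparts were measured side by side. RPL22L1 rose from 10.9, 12.8 and 14.0 to 20.02, 21.1 and 24.2 FPKM (0.75, adjusted p = 0.000636), whereas RPL22, of which it is a copy, was at 178, 179 and 199.6 with scramble shRNA and 177, 177 and 199 with scramble siRNA (-0.01, interval -0.19 to 0.17). RPL26L1 rose by 0.71 and RPL26 by 0.39. In the pair RPL39L and RPL39 the copy was at 24.7, 28.6 and 29.5 with scramble shRNA and 27.0, 28.1 and 31.2 with scramble siRNA (0.06, not called), and RPL39 fell. RPS27L (0.07) was not called while RPS27 rose by 0.54, and RPL7L1 (0.16, adjusted p = 0.105) was not called while RPL7 rose by 0.39. Of the 5 tested copies 2 were called, both higher, where 25.5% of all genes were higher, and all 5 had a difference above 0. The difference between a copy and its counterpart was not tested.

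The 4 members that fell between the controls were RPS4X, RPS7, RPL39 and RPL10. Their values with ZRANB1 siRNA stand earlier, against the same scramble siRNA values. RPS4X was at 1064, 1075 and 1127 with scramble shRNA and 992, 1019 and 1028 with EZH2 shRNA, above the 643, 648 and 676 of scramble siRNA (-0.73, SE 0.05, adjusted p = 3.63e-07), with the libraries labelled ZRANB1 siRNA in between. RPS7 was at 783, 869 and 894 with scramble shRNA and 638, 853 and 885 with EZH2 shRNA, where 1 value was well below the others (-0.62 between the controls, adjusted p = 0.000462). RPL39 was at 1596, 1750.4 and 1999.5 with scramble shRNA (-0.50, adjusted p = 0.000329) and RPL10 at 354, 374 and 377 (-0.30, adjusted p = 0.00128). For RPL39 and RPL10 the scramble siRNA group was the low one, and the ranges of the other 3 groups overlapped with one another.

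**Figure D3:**
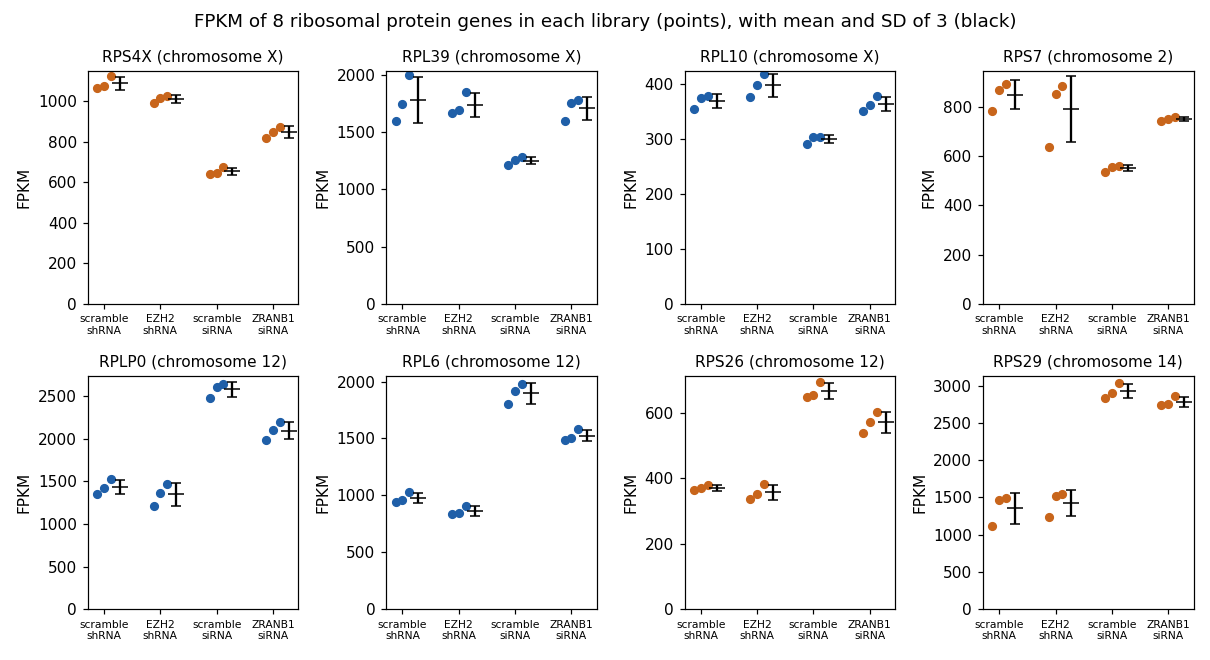
Points give the FPKM of each library for 8 members in the 4 groups (axis from 0), and black marks the mean and SD of 3. In the top row (RPS4X, RPL39, RPL10, RPS7) the scramble siRNA points are the lowest, with RPS4X at 643 to 676; in the bottom row (RPLP0, RPL6, RPS26, RPS29) they lie above both shRNA groups, with RPS29 at 2844 to 3037.

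The differences between the controls went with the chromosome a member lies on. The 3 X-linked members all fell, and the 354 other tested genes of the X chromosome had a median of -0.48, with 213 lower and 38 higher. The 4 members on chromosome 12 (RPL6, RPLP0, RPS26 and RPL41) all rose, with a median of 0.85, and the 618 other genes there had a median of 0.35, with 335 higher and 65 lower. Among the chromosomes that hold a tested member, chromosome 4 had the next lowest median of other genes after the X chromosome, -0.35, and its 3 members had a median of 0.017. On chromosomes 5 and 17, both at 0.24, all 4 and all 6 members rose. Across the 78 members the difference and the median of the other genes on the chromosome had r = 0.69 and rho = 0.65, and without the X chromosome r = 0.59 and rho = 0.61 (n = 75); members of a chromosome share that median. Even so, 71 members lay above it, by 0.35 in the median over all 78. RPS7 on chromosome 2 was furthest below, by -0.66, and RPS29 on chromosome 14 furthest above, by 1.16. The joined row of RPL36A, also an X-linked gene, and HNRNPH2 went the other way from RPS4X, RPL39 and RPL10, from 518 ± 35.1 to 711 ± 42.9 FPKM (0.46, adjusted p = 0.00120); it was picked after its values were seen.

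**Figure D4:**
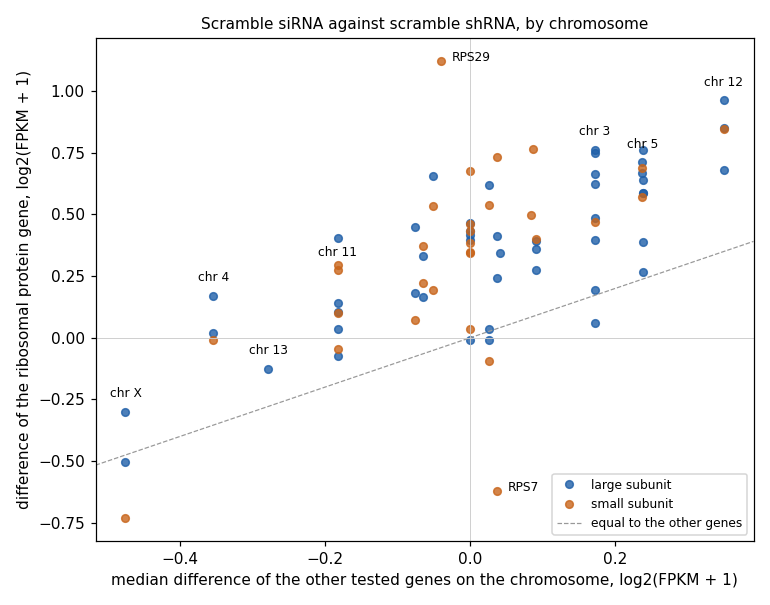
Each point is a member, placed by the median difference of the other tested genes on its chromosome (horizontal) and its own difference (vertical) between scramble siRNA and scramble shRNA, in log2(FPKM + 1). The dashed line marks equality; 71 of 78 points lie above it, the X chromosome is at the lower left, chromosome 12 at the upper right, and RPS7 and RPS29 stand apart.

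The same relation was weaker in the knockdown comparisons. With ZRANB1 siRNA the other X-linked genes had a median of 0.25 (114 higher, 10 lower of 354) and those of chromosome 12 a median of -0.14 (30 higher, 113 lower of 618), against the same scramble siRNA values as in the earlier comparison. Across members r was 0.57 and rho 0.43, and without the X chromosome 0.30 and 0.37. With EZH2 shRNA the X-linked median was 0.063, r was 0.45 and rho 0.39. The cause of these chromosome differences was not tested. The length of the coding sequence had r = -0.18, -0.28 and -0.084 with the member's difference in the EZH2, ZRANB1 and scramble comparisons, and the mean FPKM had r = -0.0041, -0.0029 and 0.063.

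Genes that work with the ribosomal proteins were taken from 8 lists. Their counts are to be read against the shares of all genes called: 25.5% higher and 25.1% lower between the controls, 3.39% and 3.03% with EZH2 shRNA, and 10.1% and 6.5% with ZRANB1 siRNA. Here rose, fell and changed refer to called genes only. With EZH2 shRNA the list medians ran from -0.22 (translation factors) to -0.031 (regulators), beside -0.16 for the members. With ZRANB1 siRNA they ran from -0.14 (mitochondrial ribosomal proteins) to 0.0027 (further ribosomal proteins), beside -0.063 for the members. The members' medians thus lay inside both ranges. Of 4 further ribosomal proteins outside the symbol rule, GNB2L1 (RACK1), a scaffold on the small subunit, rose from 1024 to 1882 FPKM between the controls (0.88, adjusted p = 9.2e-07) and fell to 1495 in those labelled ZRANB1 siRNA (-0.33, adjusted p = 0.00568). RPL36AL, a copy of RPL36A, was also higher with scramble siRNA (0.28), and 0 of the 4 changed with EZH2 shRNA. Among 74 mitochondrial ribosomal proteins, which serve the separate ribosome of the mitochondrion, 40 were higher and 0 lower between the controls (median 0.33), with MRPS7 at 0.68 and MRPL21 at 0.63. With EZH2 shRNA 0 were higher and 2 lower, MRPL11 (-0.27) and MRPS15 (-0.26), and with ZRANB1 siRNA 0 were higher and 3 lower, MRPS27 (-0.28), MRPL21 (-0.25) and MRPL16 (-0.27); both counts of falls lie near or under the shares of all genes.

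Among 70 ribosome biogenesis factors, 36 were higher and 7 lower between the controls (median 0.27), where 25.5% and 25.1% of all genes were. The 2 falls with EZH2 shRNA are near the 3.03% of all genes. NOP16 rose from 38.9 to 90.6 FPKM (1.2) and PWP1 from 33.3 to 64.7 (0.94), while NOP14 fell from 32.2 to 16.0 (-0.96). NOB1, the nuclease that makes the end of 18S ribosomal RNA, and GAR1, of the pseudouridylation particle, fell with EZH2 shRNA (-0.44 and -0.34), and 0 factors rose. With ZRANB1 siRNA 2 factors rose, NOP14 (0.35) and GNL3L (0.32), and 8 fell, among them the helicase DDX47 (-0.36). Of 20 genes of RNA polymerase I and its factors, which make ribosomal RNA, 9 were higher and 1 lower between the controls (median 0.20), 0 changed with EZH2 shRNA, and 1, the subunit POLR1E, fell with ZRANB1 siRNA (-0.36, from 46.9 to 36.3 FPKM). That count is near the 6.5% of all genes.

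Of 17 elongation and other factors whose mRNAs are known to carry TOP motifs, 10 were higher and 1 lower between the controls (median 0.24). NPM1, a nucleolar chaperone of ribosome assembly on chromosome 5, rose from 845 to 2141 FPKM (1.34), and TPT1 fell from 239 to 160 (-0.57). With EZH2 shRNA 2 fell, TPT1 (-0.45) and EIF3H (-0.36), and with ZRANB1 siRNA 3 fell, NPM1 (-0.48), HNRNPA1 (-0.29) and EIF3F (-0.21), and 0 rose in either. Of 30 initiation factors 10 were higher and 2 lower between the controls (median 0.16), among them EIF2B1 (0.87) and EIF4A3 (0.67), and with ZRANB1 siRNA 2 fell, EIF2B1 (-0.31) and EIF4A3 (-0.23); 0 changed with EZH2 shRNA. The initiation factor count of rises between the controls is not far from the 25.5% of all genes, and that of falls with ZRANB1 siRNA is near 6.5%. Of 11 host genes of small nucleolar RNAs 7 were higher and 0 lower between the controls (median 0.29), with GAS5 at 0.86 and SNHG5 at 0.69; 1, ZFAS1, rose with ZRANB1 siRNA (0.31) and 0 changed with EZH2 shRNA.

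Of 23 genes that regulate ribosome production and translation, 4 were higher and 5 lower between the controls (median 0.016), smaller shares than the 25.5% and 25.1% of all genes. The genes named here are single values and describe no shift of the list. MYC, the transcription factor known for driving ribosome production, rose from 51.5 to 88.5 FPKM (0.77), and MDM2 from 17.9 to 33.4 (0.87), while DDIT4, an inhibitor of the mTOR kinase, fell from 292 to 198 (-0.56). MDM2 fell with ZRANB1 siRNA from 33.4 to 22.8 (-0.53, adjusted p = 0.0153) and was the only gene of the list called there. With EZH2 shRNA EIF4EBP2, a repressor of cap-dependent initiation, rose from 23.4 to 37.2 FPKM (0.65, adjusted p = 0.00760), as did EIF2AK2 (0.41), and MAX, the partner of MYC, fell (-0.32).

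**Figure D5:**
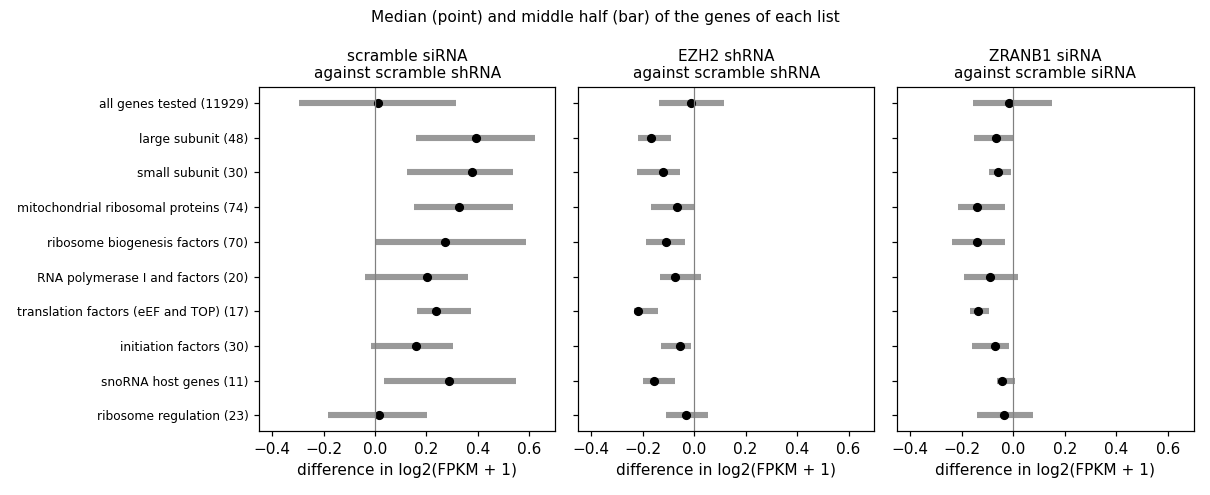
Points give the median and bars the quartiles of the differences in log2(FPKM + 1) of each list (tested genes in brackets) in the 3 comparisons. Between the scramble groups the 2 subunits have medians of 0.39 and 0.38 and the mitochondrial ribosomal proteins 0.33, beside 0.011 over all genes, whose bar spans both sides of 0.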

How the data were processed

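RNA of 12 LM2 libraries in 4 groups of 3 was profiled by RNA sequencing. The authors deposited FPKM values in 1 table of 26006 rows. Per the submitters' processing notes, the tools were TopHat2 2.1.1, Cufflinks 2.2.1, Cuffdiff 2.2.1 and SAMtools, and the human build was hg19. Options, annotation, strand setting and scaling were not given in the sources used here. The FPKM unit is relative to the sum of all fragments, so a rise of abundant genes lowers the values of others. Within each group, every row whose 3 values differ lists them in text order (15773 rows for scramble shRNA, 15751 for EZH2 shRNA, 15454 for scramble siRNA, 15850 for ZRANB1 siRNA). Columns therefore follow no library, and there is no depth, sum or pairing per library.

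Of 440 symbols on more than 1 row only the highest row was used (24556 symbols), and 27 rows whose symbols had become dates were each kept. The tested scale was log2(FPKM + 1), with a pseudocount of 1 that understates changes of low genes, and 11929 genes averaging 1 FPKM or more were tested. Fits used limma 3.58.1 (R 4.3.3), all 4 groups, 8 residual degrees of freedom, an intensity trend and Benjamini-Hochberg adjustment, and called means an adjusted p below 0.05. Shares are sums over group means. Figures come from matplotlib 3.10.9 (Python 3.11.15).

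Chromosome names (no coordinates) came from RefSeq GRCh38.p14; 345 tested genes had none. Start sequences are RefSeq windows from 250 bases before to 50 after a start, GRCh38.p14. Coding lengths came from GENCODE release 29.

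The members and the lists were chosen with earlier results of these data known. The lists were further ribosomal proteins outside the symbol rule, translation factors (eEF and TOP), initiation factors, ribosome biogenesis factors, RNA polymerase I and its factors, mitochondrial ribosomal proteins, regulators of ribosome production, and small nucleolar RNA host genes. Named members were, per comparison, up to 10 called higher and 10 called lower by adjusted p; diverged copies with their counterparts; RPLP0, RPLP1, RPLP2, RPSA, RPL5, RPL11 and RPS27A; and the 3 highest and 3 lowest expressed. From each list up to 3 called genes per comparison were taken. A few genes of the rule or the lists are counted but not reported here by name. NOP14, GNL3L, TPT1 between the scramble groups and the joined row of RPL36A were picked after their values were seen.

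The alternatives tried were no filter or a filter at 5 FPKM, a pseudocount of 0.1, only the groups compared in the fit, no trend, 2 other scalings, small RNA symbols left out, and rows of a symbol summed. A further 12 fits each left out 1 value per gene from 1 group, also a group outside the comparison, after a seeded random order. The steps were tested on simulated data with 11929 genes, of which 50 were changed at each fold. The changed genes were drawn at random from all tested genes, not from the members. In the data 50.6% of genes were called between the scramble groups, far more than were changed in the simulation. The simulated shares therefore do not give the sensitivity for the members. For the EZH2 comparison 2%, 60%, 88% and 100% of genes changed 1.2, 1.5, 2 and 4 fold were called; for the ZRANB1 comparison 8%, 60%, 94% and 98%; and for the scramble comparison 2%, 60%, 96% and 100%.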

Additional observations from a re-analysis of the deposited data

Results flagged for a closer look

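The effects of ZRANB1 siRNA and EZH2 shRNA, each against its own scramble control, differed in 4 of 78 tested ribosomal protein genes. This is by the test of the difference itself (limma, adjusted over all genes), and all 4 were higher. Over all genes 6.91% were higher and 10.5% were called either way, so the count is not above the background. RPS4X kept the call in all 20 alternatives, while RPL39 lost it in 4, RPS7 in 10 and RPL11 in 12. RPS4X differed by 0.47 on the log2(FPKM + 1) scale, from -0.10 with EZH2 shRNA to 0.37 with ZRANB1 siRNA (adjusted p = 0.00122). RPL39 differed by 0.48, from -0.03 to 0.45 (adjusted p = 0.0205), and RPS7 by 0.56, from -0.11 to 0.45 (adjusted p = 0.0344). RPL11 differed by 0.27, from -0.26 to 0.01 (adjusted p = 0.0389). With scramble siRNA against scramble shRNA, which shares its libraries with both effects, RPS4X differed by -0.73, RPL39 by -0.50, RPS7 by -0.62 and RPL11 by 0.03.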

How the results depend on the processing

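No paired analysis was possible because the columns are sorted by text within each group and carry no replicate. The count of 7 members called with EZH2 shRNA became 3 without a filter and 4 without an intensity trend. It became 0 with only the shRNA groups in the fit, where 124 of 11869 genes were called higher and 98 lower. With group sums made equal outside the ribosomal protein and small RNA rows it became 2. Of the 7 members, 0 were called in every alternative. Dropping 1 value from 1 group at a time, in random order, gave 1 to 5 calls over 12 fits. For ZRANB1 siRNA the 11 calls became 7 without a filter and 7 to 11 with 1 value left out, and 6 were called in every alternative. For the difference of the effects the 4 calls became 1 without a filter, 2 with equal sums and 1 to 6 with 1 value left out. Between the scramble groups 53 to 59 members were called with 1 value left out, beside 58 in the report. With small RNA symbols out of the denominator the shares were 15.8%, 15.2%, 19.7% and 18.9% for the scramble and EZH2 shRNA and the scramble and ZRANB1 siRNA groups, in this order. The cause of these shifts was not tested. The 6 subunit medians moved by less than their spread, and 0 called differences reversed. With group sums made equal, values were divided by 1.014 for scramble shRNA and 0.969 for EZH2 shRNA, which raised the members' EZH2 shRNA differences. The median EZH2 shRNA difference over all genes went from -0.014 to 0.042 in that setting. Of 43 called differences of named members 28 held in every alternative; of 41 that were not called, 13 changed sign in at least 1 alternative and 2 were called in at least 1 (RPL7L1 and RPLP1 between the scramble groups). Precision is limited by 3 values a group at unknown depth.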

Other observations

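The spread of single members within a group differed widely. The coefficient of variation over the 3 values ran from 0.991% (RPS16) to 16.3% (RPL28) with scramble shRNA, from 0.987% (RPS18) to 21.1% (RPL39L) with EZH2 shRNA, from 1.11% (RPL28) to 13.9% (RPS27L) with scramble siRNA and from 0.543% (RPL27) to 18.8% (RPL37) with ZRANB1 siRNA. RPL28 was thus the most variable member in 1 group and the least variable in another.

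The rows that join a ribosomal protein gene with its neighbour were higher with scramble siRNA than with scramble shRNA in all 3 cases. The row of RPL17 and C18orf32 went from 439.9 ± 14.3 to 651 ± 25.1 FPKM (log2 difference 0.56, limma adjusted p = 0.00415), and that of RPS10 and NUDT3 from 1366 ± 109 to 1632 ± 97.1 (0.26, adjusted p = 0.0186). Neither these rows nor that of RPL36A and HNRNPH2 were called in the EZH2 or the ZRANB1 comparison. A joined row cannot say which of its genes differed.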
